A study of Mus musculus with 9 samples.

Results

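Nucleolar ribosome biogenesis genes were followed in cultured mouse NPK prostate cancer cells. The set was a list of 46 genes whose products act in the nucleolus in the synthesis, modification and processing of ribosomal RNA or in the assembly of the ribosomal subunits, and its members were listed by gene symbol. Of the 46 genes, 45 were among the 12842 genes of the deposited table, and Noc2l was not analysed here.

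RNA-seq profiles of 9 libraries were compared, with 3 each of control cells, of cells under shRNA silencing of Nsd2 (shNsd2) and of cells that received a compound, MCTP in the labels. Nsd2 is a histone methyltransferase, and MCTP is the prefix of a compound that the study treats as a putative NSD2 inhibitor. The comparisons with control ask what silencing of Nsd2 and exposure to the compound did to gene expression in these cells. NPK cells were isolated from lung metastases of mice that carry an inducible Cre, a Cre-activated KrasLSL-G12D allele and the R26R-YFP lineage reporter, so that every group shares these alleles. Silencing in the study used lentiviral shRNA, and the labels state neither which Nsd2 shRNA a library received nor whether a control shRNA was present in control cells. The titles of the shNsd2 libraries all name Nsd2, while in a further label the name runs from Nsd2 through Nsd3 to Nsd4. The MCTP titles number the compound 39, 40 and 41, of which the study names number 39 only, and the dose and time for these cells were not given in the sources used here. Whether the 3 libraries of the MCTP group, or of the shNsd2 group, are replicates of 1 treatment is therefore not certain from the labels, and each fold change is for the mean of the 3 libraries.

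Ribosomes are built in the nucleolus, where RNA polymerase I transcribes the precursor of most ribosomal RNA. Box C/D and box H/ACA small nucleolar ribonucleoproteins (snoRNPs) guide the methylation and pseudouridylation of this precursor, and a long series of assembly factors cleaves it, folds it and joins it to ribosomal proteins to give the small and the large subunit. In growing cells, tumor cells included, these genes are strongly expressed, and many of them are textbook targets of the transcription factor Myc.

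Expression was given on a log2 scale, as 1 value for each gene in each library, with no read counts, and the depth of each library is therefore unknown. The precision was judged from the spread between replicates. Because the RNA was taken from whole cultures, fewer cells expressing a gene and less RNA per cell cannot be told apart. The labelled cell type was checked against markers. The luminal keratins Krt8, Krt18 and Krt19 lay between 15.21 and 16.76 in the 9 libraries and Cdh1 between 11.41 and 11.84. Epcam, a general epithelial marker, lay between 3.54 and 3.76, under the level of 3.78 that was used to remove weakly expressed genes. The mesenchymal gene Vim was also high, between 16.99 and 17.65. Of the other epithelial markers, Krt14 and Krt15 were expressed, and Krt5 was not analysed here. Of the 6 immune markers Cd68 alone was in the table, between 6.50 and 7.44, and of the 5 endothelial markers Cdh5 alone, between 3.47 and 3.71. Cd68 was called higher in shNsd2 cells, by 0.23 on the log2 scale (adjusted p = 0.00227 from limma), and in MCTP cells, by 0.73 (adjusted p = 6.88e-04 from limma), and its part in the results below was not tested.

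The silenced gene was examined first. Nsd2, listed under its older symbol Whsc1, had log2 values of 12.48, 12.43 and 12.42 in control cells, 12.15, 12.21 and 12.07 in MCTP cells and 11.56, 11.61 and 11.68 in shNsd2 cells. The groups did not overlap, with shNsd2 libraries lowest and MCTP libraries between them and control. The log2 fold change was -0.83 in shNsd2 cells (SE, the standard error, 0.0408, adjusted p = 2.26e-06 by limma) and -0.30 in MCTP cells (SE 0.0537, adjusted p = 0.00562 by limma). After a correction of each library for GC content the change was -0.77 in shNsd2 cells and -0.13 in MCTP cells, the latter close to the threshold (adjusted p = 0.0495 from limma). Nsd3, listed as Whsc1l1, had log2 values of 11.54, 11.38 and 11.40 in control and 11.36, 11.38 and 11.51 in shNsd2 cells. Its log2 fold change in shNsd2 cells was -0.02 (adjusted p = 0.744 by limma).

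In shNsd2 cells the nucleolar genes were higher as a group. Of the 45 members, 38 were called higher (limma, adjusted p under 0.05 over the 12205 genes tested) and 0 lower, while at an unadjusted p under 0.05 the same test gave 40 higher and 0 lower. Among all genes tested 23.1% were called higher and 24.8% lower, 47.8% in all. The median log2 fold change of the members was 0.27, with a range from 0.01 to 0.51, and that of all genes tested was 0.002. In 42 members every shNsd2 library was above every control library, a pattern seen in 28.1% of all genes, and in 0 members was every shNsd2 library below, against 29.1% of all genes. The changes were small, and the replicates lay close together. Averaged over the 45 members, the difference from the control mean was 0.289, 0.266 and 0.278 in the shNsd2 libraries and -0.035, 0.029 and 0.006 in the control libraries, so that the lowest shNsd2 library stood well above the highest control library.

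**Figure D1:**
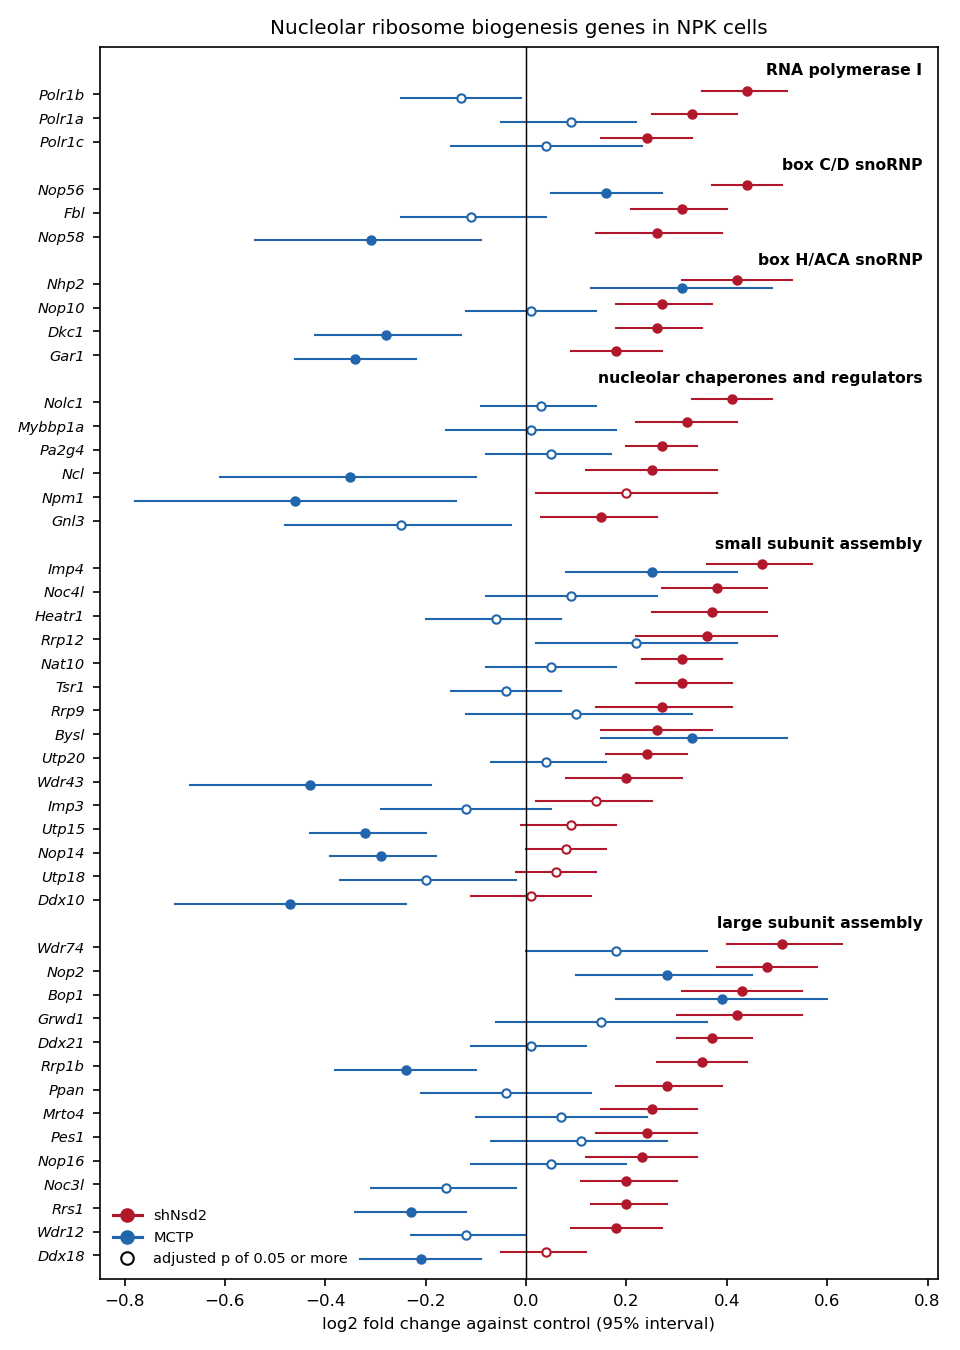
Log2 fold change of each of the 45 members in shNsd2 (red) and MCTP cells (blue) against control, 3 libraries per group, with the 95% interval from limma as a line, in groups by role. Filled circles have an adjusted p under 0.05. All 45 red points lie above 0, from 0.01 to 0.51, and the blue points spread from -0.47 to 0.39.

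All 3 subunits of RNA polymerase I in the set rose in shNsd2 cells. Polr1b, which encodes the subunit that forms the catalytic center with Polr1a, had log2 values of 10.77, 10.83 and 10.84 in control and 11.29, 11.26 and 11.21 in shNsd2 cells. Its shNsd2 libraries all lay above the control libraries by far more than either group's spread, with a log2 fold change of 0.44 (SE 0.0381, adjusted p = 3.93e-05 by limma). Polr1a, the largest subunit, rose by 0.33 and Polr1c, a subunit shared with RNA polymerase III, by 0.24.

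The box C/D snoRNP proteins, which carry out methylation of ribosomal RNA, rose as well. The scaffold protein gene Nop56 had log2 values of 12.54 in each of the 3 control libraries and of 12.96, 13.01 and 12.97 in the shNsd2 libraries. The control values were nearly identical, and the groups were clearly apart, with a log2 fold change of 0.44 (SE 0.0312, adjusted p = 1.41e-05 by limma). Fbl, the methyltransferase fibrillarin, rose by 0.31 and Nop58, the partner of Nop56, by 0.26. Of the box H/ACA proteins, which carry out pseudouridylation, Nhp2 rose by 0.42, Nop10 by 0.27, the pseudouridine synthase gene Dkc1 by 0.26 and Gar1 by 0.18, so that 4 of 4 were called higher.

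Among the 6 nucleolar chaperones and regulators, 5 were called higher. Nolc1, a chaperone of snoRNPs, rose by 0.41, Mybbp1a, a regulator of ribosomal DNA transcription, by 0.32, Pa2g4, a nucleolar RNA-binding protein, by 0.27, nucleolin (Ncl) by 0.25 and the GTPase nucleostemin (Gnl3) by 0.15. For nucleophosmin (Npm1) the log2 fold change was 0.20, with groups that overlapped, and did not pass the threshold (SE 0.0795, adjusted p = 0.0657 by limma). It did pass without control replicate 1, where it was 0.27 (adjusted p = 0.00751 from limma), and without shNsd2 replicate 2, where it was 0.25 (adjusted p = 0.0466 from limma). With each library centred on its median it was 0.22 and called as well (adjusted p = 0.0328 from limma), as it was after the GC correction (0.26, adjusted p = 0.00159 from limma). It was 0.13 without control replicate 3 (adjusted p = 0.205 from limma) and 0.14 without shNsd2 replicate 3 (adjusted p = 0.192 from limma), and with all 9 libraries in 1 fit the adjusted p from limma was 0.262.

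Assembly factors of the small subunit were the most mixed, with 10 of 15 called higher and a median of 0.26. Imp4, which binds the U3 snoRNA with Imp3, had log2 values of 10.43, 10.56 and 10.59 in control and 11.02, 10.99 and 10.98 in shNsd2 cells. The shNsd2 libraries were nearly identical and all above control, with a log2 fold change of 0.47 (SE 0.0457, adjusted p = 7.45e-05 by limma). Noc4l rose by 0.38, the processome scaffold gene Heatr1 by 0.37, Rrp12 by 0.36, the RNA acetyltransferase gene Nat10 by 0.31, Tsr1 by 0.31, Rrp9 by 0.27, Bysl by 0.26, Utp20 by 0.24 and Wdr43 by 0.20. The other 5 factors did not pass the threshold. Their log2 fold changes were 0.14 for Imp3, 0.09 for Utp15, 0.08 for Nop14, 0.06 for Utp18 and 0.01 for the RNA helicase gene Ddx10.

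For the large subunit, 13 of 14 assembly factors were called higher, and the median was 0.27. Wdr74, a factor that acts on the large subunit precursor, showed the largest rise of all members, with log2 values of 10.27, 10.45 and 10.39 in control and 10.94, 10.86 and 10.85 in shNsd2 cells. Its groups were far apart, with a log2 fold change of 0.51 (SE 0.0502, adjusted p = 7.33e-05 by limma). Nop2, a methyltransferase of large subunit RNA, had log2 values of 11.96, 12.12 and 12.05 in control and 12.55, 12.54 and 12.49 in shNsd2 cells. Here too no library overlapped, and the log2 fold change was 0.48 (SE 0.0442, adjusted p = 5.21e-05 by limma). Bop1, which forms a complex with Pes1 and Wdr12, had log2 values of 11.15, 11.30 and 11.30 in control and 11.74, 11.68 and 11.61 in shNsd2 cells. Control replicate 1 was the lowest library, the groups stayed apart, and the log2 fold change was 0.43 (SE 0.0519, adjusted p = 2.37e-04 by limma). Its partners rose less, Pes1 by 0.24 and Wdr12 by 0.18. Rises among the other factors were 0.42 for Grwd1, 0.37 for the helicase gene Ddx21, 0.35 for Rrp1b, 0.28 for Ppan, 0.25 for Mrto4, 0.23 for Nop16, 0.20 for Noc3l and 0.20 for Rrs1. Ddx18, a helicase gene, had a log2 fold change of 0.04 and was not called.

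Leaving out each of the 6 libraries in turn, the number of members called higher in shNsd2 cells stayed between 37 and 39, and 37 of the 38 members were called in every such fit. The exception was Gnl3, which was called only with all 6 libraries or without control replicate 1. Its log2 fold change was 0.13 without control replicate 2, 0.11 without control replicate 3, 0.16 without shNsd2 replicate 1, 0.16 without shNsd2 replicate 2 and 0.11 without shNsd2 replicate 3, with an adjusted p from limma between 0.0691 and 0.137.

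MCTP cells differed from this pattern. Of the 45 members, 6 were called higher and 12 lower, and 27 were not called (limma, adjusted p under 0.05 over the 12216 genes tested). Among all genes tested 18.0% were called higher and 17.2% lower, 35.2% in all, so that the share of members called was near that of all genes. The median log2 fold change of the members was 0.006, beside -0.006 over all genes tested, and the range was from -0.47 to 0.39. In 6 members every MCTP library was above every control library, against 25.8% of all genes, and in 15 members every MCTP library was below, against 24.8% of all genes. Averaged over the 45 members, the difference from the control mean was -0.044, -0.075 and -0.024 in the MCTP libraries, and the MCTP libraries overlapped the control libraries.

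These counts changed when single libraries were left out. A fit with a library left out has less power, so a call can be lost at an unchanged log2 fold change. Nop56 stood at 0.16 with all libraries, where it was called, and without control replicate 1, 2 or 3, where it was not. MCTP replicate 2, the library labelled with compound number 40, stood apart from MCTP replicates 1 and 3, which lay close together. The median absolute difference over the members was 0.17 between replicate 2 and the mean of replicates 1 and 3, and 0.0452 between replicates 1 and 3, whereas over all genes tested it was 0.134 and 0.0649. Without MCTP replicate 2, 12 members were called higher and 15 lower. Without MCTP replicate 1 the counts were 0 and 5, and without MCTP replicate 3 they were 3 and 9. Without control replicate 1 the counts were 0 and 8, without control replicate 2 they were 2 and 4, and without control replicate 3 they were 2 and 6. Of the 18 members called, Gar1, Nop14 and Utp15 were called in every one of these fits. The share of all genes called is given for the fits on all 6 libraries only, so these counts cannot be set beside it. Without MCTP replicate 2, calls also rose among other ribosome biogenesis genes (to 25 higher and 47 lower) and cytosolic ribosomal proteins (to 37 and 3).

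The members that fell in MCTP cells came from every role but RNA polymerase I. Ddx10 fell the most, with log2 values of 9.61, 9.50 and 9.50 in control and 8.97, 9.30 and 8.93 in MCTP cells. MCTP replicate 2 lay nearest to control, yet none of the MCTP libraries reached the lowest control library, with a log2 fold change of -0.47 (SE 0.0995, adjusted p = 0.0107 by limma). Without MCTP replicate 1 it was -0.42 and not called (adjusted p = 0.0556 from limma). Npm1 had log2 values of 14.44, 14.29 and 14.15 in control, 13.70, 14.15 and 13.65 in MCTP and 14.47, 14.38 and 14.62 in shNsd2 cells. MCTP replicate 2 was level with the lowest control library, so the groups met, and the log2 fold change was -0.46 (SE 0.138, adjusted p = 0.0363 by limma). Whichever library other than MCTP replicate 2 was left out, Npm1 was no longer called, with log2 fold changes from -0.53 to -0.37 and an adjusted p from limma between 0.0542 and 0.138.

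Wdr43, a factor of the early small subunit processome, had log2 values of 11.31, 11.28 and 11.20 in control, 10.72, 11.08 and 10.70 in MCTP and 11.42, 11.41 and 11.57 in shNsd2 cells. All MCTP libraries lay below control and all shNsd2 libraries above it, with MCTP replicate 2 again the nearest to control. The log2 fold change in MCTP cells was -0.43 (SE 0.102, adjusted p = 0.0163 by limma). It was not called without control replicate 1 (-0.41), control replicate 2 (-0.42) or MCTP replicate 1 (-0.38), with an adjusted p from limma of 0.0568, 0.0582 and 0.0755. Ncl had log2 values of 14.50, 14.40 and 14.32 in control, 13.93, 14.31 and 13.92 in MCTP and 14.64, 14.59 and 14.75 in shNsd2 cells. MCTP replicate 2 was just under the lowest control library, and the log2 fold change in MCTP cells was -0.35 (SE 0.11, adjusted p = 0.0411 by limma). Like Npm1, Ncl was not called when any library other than MCTP replicate 2 was left out (log2 fold changes from -0.39 to -0.29, adjusted p from limma between 0.0729 and 0.152). Gar1 had log2 values of 10.34, 10.35 and 10.29 in control, 10.03, 9.93 and 9.99 in MCTP and 10.56, 10.48 and 10.47 in shNsd2 cells. Its replicates lay close together in all groups, with MCTP replicate 2 the lowest, and the log2 fold change in MCTP cells was -0.34 (SE 0.0522, adjusted p = 0.00304 by limma). The other falls called were Utp15 (-0.32), Nop58 (-0.31), Nop14 (-0.29), Dkc1 (-0.28), Rrp1b (-0.24), Rrs1 (-0.23) and Ddx18 (-0.21). Nop58 lost the call without any library other than MCTP replicate 2, Dkc1 without control replicate 2 (-0.26), control replicate 3 (-0.27) or MCTP replicate 1 (-0.28), Rrs1 without control replicate 2 (-0.23) and Ddx18 without control replicate 2 (-0.18), control replicate 3 (-0.22) or MCTP replicate 1 (-0.23), and Rrp1b, like Nop58, is described with the members called in opposite directions. The adjusted p from limma in the fits without a call for Dkc1, Rrs1 and Ddx18 was between 0.0512 and 0.0984.

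The 6 rises in MCTP cells were found in Bop1, Bysl, Nhp2, Nop2, Imp4 and Nop56. Bop1 had the largest, with log2 values of 11.69, 11.44 and 11.79 in MCTP cells beside 11.15, 11.30 and 11.30 in control. The MCTP libraries were all above control, with MCTP replicate 2 the lowest of them, and the log2 fold change was 0.39 (SE 0.0922, adjusted p = 0.0162 by limma). Without control replicate 1 it was 0.34 and without MCTP replicate 1 it was 0.37, and neither was called (adjusted p = 0.0597 and 0.0732 from limma). Bysl, a late factor of the small subunit, rose by 0.33, and lost the call without control replicate 1 (0.29) or MCTP replicate 1 (0.32), with an adjusted p from limma of 0.0615 and 0.0725. Nhp2 rose by 0.31 and lost the call without control replicate 1 (0.31), control replicate 2 (0.34), control replicate 3 (0.29) or MCTP replicate 1 (0.31), with an adjusted p from limma between 0.0523 and 0.0781. Nop2 rose by 0.28, Imp4 by 0.25 and Nop56 by 0.16, and these 3 were called only with all libraries or without MCTP replicate 2. Without any other library, the log2 fold change was from 0.22 to 0.31 for Nop2, from 0.20 to 0.28 for Imp4 and from 0.14 to 0.16 for Nop56, with an adjusted p from limma between 0.0559 and 0.133. After the GC correction the rise of Nop2 was smaller and called (0.18, adjusted p = 0.012 from limma). With the replicate number as a block neither Imp4 nor Nop56 was called (adjusted p of 0.054 and 0.119 from limma).

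The 27 members that were not called in MCTP cells had log2 fold changes from -0.25 for Gnl3 to 0.22 for Rrp12. None of the 3 RNA polymerase I subunits was called (limma, 0 higher and 0 lower, and at an unadjusted p under 0.05 0 higher and 1 lower), with log2 fold changes of 0.09 for Polr1a, 0.04 for Polr1c and -0.13 for Polr1b. Polr1b was called lower with all 9 libraries in 1 fit (-0.13, adjusted p = 0.0367 from limma) and after a correction of each library for GC content (-0.19, adjusted p = 0.00322 from limma). Fbl stood at -0.11, Nop10 at 0.01, Nolc1 at 0.03, Pa2g4 at 0.05 and Mybbp1a at 0.01. Of the small subunit factors not called, Rrp9 was at 0.10, Noc4l at 0.09, Nat10 at 0.05, Utp20 at 0.04, Tsr1 at -0.04, Heatr1 at -0.06, Imp3 at -0.12 and Utp18 at -0.20. Among the large subunit factors not called, the values were 0.18 for Wdr74, 0.15 for Grwd1, 0.11 for Pes1, 0.07 for Mrto4, 0.05 for Nop16, 0.01 for Ddx21, -0.04 for Ppan, -0.12 for Wdr12 and -0.16 for Noc3l. Wdr74, the member with the largest rise in shNsd2 cells, was called in MCTP cells without MCTP replicate 2, where it stood at 0.25 (adjusted p = 0.0062 by limma). The median by role was 0.043 for RNA polymerase I, -0.108 for box C/D, -0.134 for box H/ACA, -0.12 for chaperones and regulators, -0.042 for the small subunit and 0.027 for the large subunit, in each case below the median of the same role in shNsd2 cells.

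Both comparisons with control use the same 3 control libraries, so their values are given side by side. Called in both were 13 members, of which 6 were higher in both (Bop1, Bysl, Nhp2, Nop2, Imp4 and Nop56) and 7 were higher in shNsd2 and lower in MCTP cells (Wdr43, Ncl, Rrp1b, Nop58, Dkc1, Gar1 and Rrs1). A further 25 were called in shNsd2 cells only, all higher, and 5 in MCTP cells only, all lower (Ddx10, Npm1, Utp15, Nop14 and Ddx18). Imp3 and Utp18 were called in neither.

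Rrp1b, a nucleolar protein that works on the large subunit precursor, had log2 values of 10.60, 10.68 and 10.73 in control, 10.50, 10.37 and 10.42 in MCTP and 11.04, 11.03 and 11.00 in shNsd2 cells. The groups were apart on both sides of control, although MCTP replicate 1 and control replicate 1 lay near each other. The log2 fold change was 0.35 in shNsd2 cells (SE 0.041, adjusted p = 1.93e-04 by limma) and -0.24 in MCTP cells (SE 0.0597, adjusted p = 0.0194 by limma). The fall was not called without control replicate 2 (-0.23, adjusted p = 0.0786 from limma) or control replicate 3 (-0.21, adjusted p = 0.0801 from limma). Nop58 had log2 values of 11.60, 11.56 and 11.48 in control, 11.13, 11.46 and 11.09 in MCTP and 11.80, 11.72 and 11.92 in shNsd2 cells. MCTP replicate 2 was almost level with the lowest control library, whereas the shNsd2 libraries were clear of both groups. The log2 fold change was 0.26 in shNsd2 cells (SE 0.0546, adjusted p = 0.00398 by limma) and -0.31 in MCTP cells (SE 0.0981, adjusted p = 0.0407 by limma). The call in MCTP cells was lost without any library other than MCTP replicate 2, with log2 fold changes from -0.35 to -0.25 and an adjusted p from limma between 0.0745 and 0.15. For Wdr43 and Ncl, whose library values are given above, the rise in shNsd2 cells was 0.20 (SE 0.0506, adjusted p = 0.0108 by limma) and 0.25 (SE 0.0583, adjusted p = 0.00705 by limma). With all 9 libraries in 1 fit the rises of Wdr43, Ncl and Nop58 were not called (adjusted p of 0.131, 0.0804 and 0.051 from limma), and with quantile normalization neither were the falls of Ncl, Nop58 and Npm1 (adjusted p of 0.0709, 0.0544 and 0.0536 from limma).

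**Figure D2:**
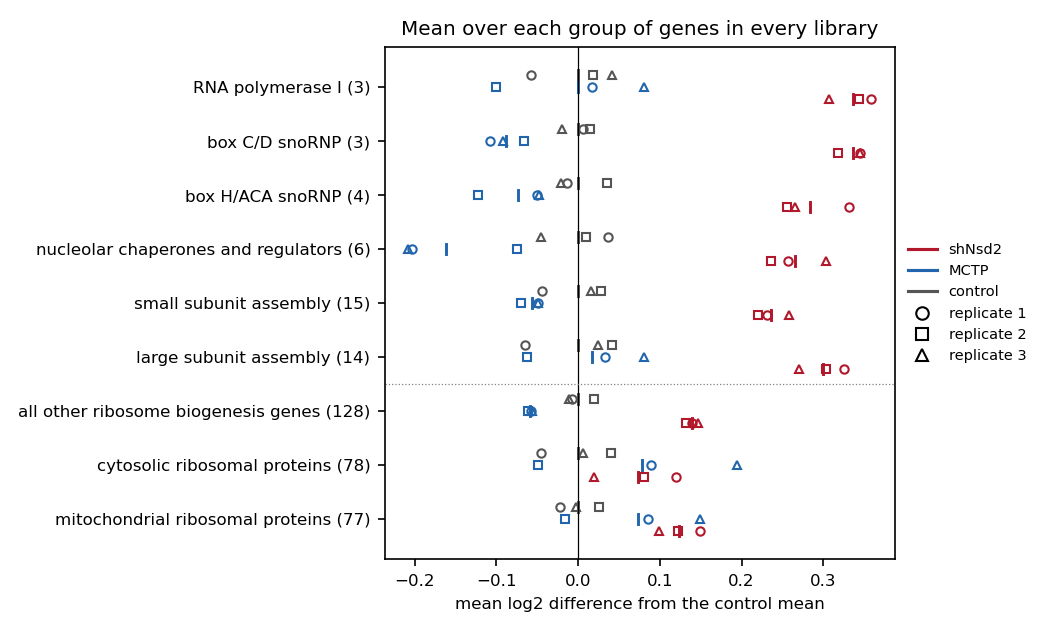
Mean log2 difference from the control mean over the genes of each role (above the dotted line) and over 3 other lists (below it) in every library, with the number of genes in brackets, symbols for the replicate and a bar for the group mean. In each of the 6 roles the 3 shNsd2 libraries lie above all control and MCTP libraries, whereas MCTP replicate 2 lies away from replicates 1 and 3 in several roles.

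A direct comparison of shNsd2 with MCTP cells, which uses no control library, asks whether the silenced and the treated cells differed. In it 36 of the 45 members were called higher in shNsd2 cells and 0 lower (limma, adjusted p under 0.05 over the 12217 genes tested), with 39 higher and 0 lower at an unadjusted p under 0.05. Among all genes tested 20.6% were called higher and 22.6% lower, 43.2% in all. The median log2 difference of the members was 0.297, beside 0.007 over all genes tested, with a range from -0.07 to 0.66. In 39 members every shNsd2 library was above every MCTP library, against 26.5% of all genes, and in 0 members was every one below, against 28.5% of all genes. By role, 2 of 3 RNA polymerase I subunits, 3 of 3 box C/D proteins, 3 of 4 box H/ACA proteins, 6 of 6 chaperones and regulators, 12 of 15 small subunit and 10 of 14 large subunit factors were called higher in shNsd2 cells.

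Npm1 differed most between shNsd2 and MCTP cells, by 0.66 (SE 0.135, adjusted p = 0.00709 by limma). The 4 members described above with opposite calls differed by 0.63 for Wdr43 (SE 0.106, adjusted p = 0.00306 by limma), 0.60 for Ncl (SE 0.109, adjusted p = 0.00425 by limma), 0.59 for Rrp1b (SE 0.0508, adjusted p = 1.64e-04 by limma) and 0.58 for Nop58 (SE 0.103, adjusted p = 0.00395 by limma). Each of these 5 differences was called whichever library was left out. The 9 members not called were Polr1c at 0.20, Nop16 at 0.18, Mrto4 at 0.18, Rrp9 at 0.17, Rrp12 at 0.14, Pes1 at 0.13, Nhp2 at 0.10, Bop1 at 0.04 and Bysl at -0.07. Leaving out each library in turn, between 30 and 39 members were called higher, and 28 of the 36 were called in every such fit. Of the other 8, Grwd1 (0.24 to 0.31), Imp4 (0.20 to 0.24) and Nop2 (0.19 to 0.22) lost the call without MCTP replicate 1 or any shNsd2 library, and Utp18 without any library other than MCTP replicate 2 (0.20 to 0.27). Utp20 lost it without MCTP replicate 1 (0.20), shNsd2 replicate 2 (0.21) or shNsd2 replicate 3 (0.17), Pa2g4 without shNsd2 replicate 1 (0.22) or shNsd2 replicate 2 (0.21), Gnl3 without MCTP replicate 1 (0.35) and Imp3 without shNsd2 replicate 1 (0.24). The adjusted p from limma in these fits was between 0.0509 and 0.136. With quantile normalization 34 members were called higher, and centred on medians 33. Imp4 was called in neither (0.18 and 0.20, adjusted p of 0.0578 and 0.061 from limma). Nop2 was not called centred on medians (0.19, adjusted p = 0.0874 from limma). With the replicate number as a block Imp4, Nop2 and Pa2g4 were not called (adjusted p of 0.073, 0.1 and 0.0633 from limma). Without MCTP replicate 2, 36 members were called higher and 1 lower, which was Bysl.

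Levels were compared between genes per length, as the log2 value minus log2 of the exonic length in kb. On this scale the control level was 12.88 ± 0.144 for Npm1, 11.69 ± 0.0225 for Pa2g4 and 11.25 ± 0.071 for Mybbp1a (mean ± SD, n = 3), followed by Ncl at 11.06 and Nhp2 at 11.01. The lowest levels per length were 6.72 for Wdr12 and 7.43 for Imp4. These rest on annotated exonic lengths of 11955 and 8553 bases. Before the length was taken into account, their control means of 10.30 and 10.53 were above the 9.54 of Ddx10. With the longest transcript as the length, a choice made after seeing the data, the first 4 were again Npm1, Pa2g4, Mybbp1a and Ncl, at 13.58, 11.86, 11.64 and 11.37. The lowest levels were then 6.98 for Wdr12 and 7.64 for Noc3l, while Imp4 stood at 7.98. Pa2g4 had log2 values of 13.18, 13.20 and 13.15 in control, 13.25, 13.15 and 13.28 in MCTP and 13.45, 13.46 and 13.42 in shNsd2 cells. MCTP and control libraries overlapped and the shNsd2 libraries were all higher, with a log2 fold change of 0.27 in shNsd2 cells (SE 0.0327, adjusted p = 2.35e-04 by limma) and 0.05 in MCTP cells (adjusted p = 0.494 from limma). Mybbp1a had log2 values of 13.71, 13.84 and 13.83 in control, 13.85, 13.67 and 13.89 in MCTP and 14.13, 14.13 and 14.07 in shNsd2 cells. Here too the shNsd2 libraries alone stood apart, with a log2 fold change of 0.32 (SE 0.0437, adjusted p = 4.85e-04 by limma) beside 0.01 in MCTP cells (adjusted p = 0.906 from limma), a value whose sign changed when control replicate 1 (-0.03), MCTP replicate 1 (-0.01) or MCTP replicate 3 (-0.03) was left out.

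The members lie on 16 chromosomes, with at most 6 on any of them (6 each on chromosomes 1 and 11). Their median GC content was 50.8%, beside 49.8% over the 11930 genes tested with a known sequence, their median longest transcript was 3128 bases, beside 3366, and their median control log2 value was 10.82, beside 9.85. The spread of the fold changes followed GC content. Across the 45 members the correlation of the log2 fold change with GC content was r = 0.61 in MCTP cells, 0.45 in shNsd2 cells and -0.48 for shNsd2 against MCTP. Across all genes it was 0.41 (n = 11940), 0.22 (n = 11930) and -0.22 (n = 11940). Genes are not independent replicates, and the points of each correlation share their libraries. The median GC content was 54.0% for the 6 members called higher in MCTP cells, 44.8% for the 12 called lower and 51.2% for the 27 not called.

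Libraries of 1 group also differed along GC content. Over all genes, the correlation of GC content with a library's deviation from the mean of all libraries was -0.56, -0.28 and -0.15 in control, 0.43, -0.26 and 0.52 in MCTP and 0.10, 0.12 and -0.27 in shNsd2 libraries. MCTP replicate 2 thus had the opposite sign to MCTP replicates 1 and 3, and shNsd2 replicate 3 to shNsd2 replicates 1 and 2. When the GC trend was removed from each library, 42 members were called higher and 0 lower in shNsd2 cells, with all 38 of the earlier calls among them. In MCTP cells the same correction gave 6 higher and 16 lower, again with all 18 of the earlier calls, and for shNsd2 against MCTP 42 higher and 0 lower, with 35 of the 36 earlier calls. The correlation across the members then was 0.11 in shNsd2 cells, 0.23 in MCTP cells and -0.20 for shNsd2 against MCTP. The share of all genes called after the correction is not given here. The correction also removes any change in expression that itself follows GC content, and the part of GC content in the results was not tested further.

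**Figure D3:**
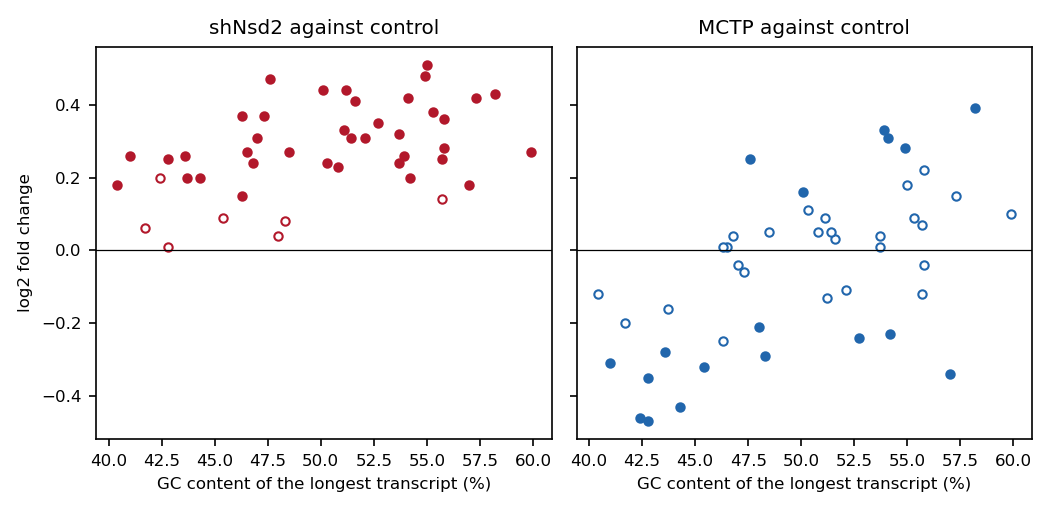
Log2 fold change of each of the 45 members against the GC content of its longest transcript (percent), in shNsd2 cells (red) and MCTP cells (blue) against control, 3 libraries per group. Filled circles have an adjusted p under 0.05 from limma. The red points lie above 0 across the range of GC content, whereas the members called lower in MCTP cells have a median GC content of 44.8% and those called higher 54.0%.

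The promoters of the members were examined because so many of them moved together in shNsd2 cells. A RefSeq promoter of 300 bases was found for 40 of the 45 members (for 2 with more than 1 promoter the first listed was taken), and 4 motifs were searched on both strands: CACGTG, the E-box bound by Myc and related factors, CCGGAAGT, CTCGCGAG and GGGCGG. The letters CACGTG were found in 9 of the 40 promoters (22.5%), against 997 of the 9697 promoters of all genes in the table (10.3%), 18.7% of those of other ribosome biogenesis genes, 10.3% of those of cytosolic ribosomal proteins and 7.46% of those of mitochondrial ones. CCGGAAGT was found in 8 (20.0%, against 8.7% of all promoters, 28.0% of those of other ribosome biogenesis genes, 19.0% of those of cytosolic and 16.4% of those of mitochondrial ribosomal proteins), CTCGCGAG in 1 (2.5%, against 1.97%) and GGGCGG in 28 (70.0%, against 66.0%). The 9 members with CACGTG were Grwd1, Imp4, Mybbp1a, Nop2, Pes1, Tsr1, Utp18, Utp20 and Wdr43. Of these, 8 were called higher in shNsd2 cells and 0 lower (limma), with a median log2 fold change of 0.31, and of the 31 without CACGTG 26 were called higher and 0 lower, with a median of 0.26. In MCTP cells the 9 with CACGTG had 2 called higher and 1 lower and a median of 0.04, and the 31 without it 3 higher and 9 lower and a median of -0.04. A match is only a description of the letters in the window.

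The promoters of Nop2 and Imp4, called higher in both comparisons with control, and of Wdr43, called in opposite directions, are shown because each holds 1 CACGTG, here in capitals. All are RefSeq sequence of build GRCm38.p6 on the plus strand, with Nop2 at chr6:125131633-125131932, Imp4 at chr1:34439579-34439878 and Wdr43 at chr17:71615965-71616264. The first base of the match is base 191 of the window in Nop2, base 130 in Imp4 and base 268 in Wdr43.
Nop2: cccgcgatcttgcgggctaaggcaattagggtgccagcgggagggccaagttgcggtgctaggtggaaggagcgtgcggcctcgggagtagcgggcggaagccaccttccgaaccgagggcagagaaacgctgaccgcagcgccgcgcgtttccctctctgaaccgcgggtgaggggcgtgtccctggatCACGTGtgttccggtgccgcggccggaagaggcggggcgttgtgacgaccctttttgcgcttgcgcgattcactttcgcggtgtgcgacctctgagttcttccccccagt
Imp4: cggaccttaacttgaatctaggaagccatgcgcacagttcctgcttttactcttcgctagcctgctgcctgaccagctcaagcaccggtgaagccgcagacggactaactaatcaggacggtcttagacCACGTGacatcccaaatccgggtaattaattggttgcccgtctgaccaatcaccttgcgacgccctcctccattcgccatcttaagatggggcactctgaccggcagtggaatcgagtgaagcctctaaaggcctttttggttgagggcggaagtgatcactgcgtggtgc
Wdr43: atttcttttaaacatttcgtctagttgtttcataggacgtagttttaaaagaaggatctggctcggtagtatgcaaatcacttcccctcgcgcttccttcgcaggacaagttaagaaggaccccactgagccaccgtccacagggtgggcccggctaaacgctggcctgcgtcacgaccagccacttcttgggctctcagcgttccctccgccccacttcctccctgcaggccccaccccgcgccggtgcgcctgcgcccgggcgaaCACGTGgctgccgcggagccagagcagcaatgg

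Other genes of the pathway were counted beside the members. Of 127 other ribosome biogenesis genes tested (limma), 68 were called higher and 5 lower in shNsd2 cells, with a median log2 fold change of 0.139, about the same difference in each shNsd2 library (0.139, 0.132 and 0.147 on average). These shares were 53.5% and 3.94%, beside 23.1% and 24.8% of all genes. Called higher were 6 of 12 other RNA polymerase I subunits and factors, 23 of 40 small subunit factors, 27 of 47 large subunit factors, 5 of 8 snoRNP assembly factors and 7 of 20 genes of the RNA exosome and RNase MRP, which trim and cleave the precursor. The largest rises were 0.44 for the SUMO protease gene Senp3 (adjusted p = 2.30e-05 from limma), 0.41 for Pwp2, 0.39 for Eif6, which keeps the large subunit from joining the small one, and 0.36 for Wdr46. The falls were smaller, -0.19 for Utp11l, -0.17 for Nsa2, -0.17 for Znhit6 and -0.14 for Taf1b. Znhit6 lost the call without control replicate 1 (-0.16), control replicate 2 (-0.14), shNsd2 replicate 1 (-0.16) or shNsd2 replicate 2 (-0.12), and Taf1b without any library other than shNsd2 replicate 3 (-0.16 to -0.11), with an adjusted p from limma between 0.0517 and 0.177. With all 9 libraries in 1 fit none of Utp11l, Znhit6 and Taf1b was called (adjusted p of 0.0598, 0.0905 and 0.0697 from limma). The number called lower was 2 without control replicate 2, 3 without shNsd2 replicate 1 and 2 without shNsd2 replicate 2.

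In MCTP cells 8 of the 127 other ribosome biogenesis genes were called higher and 26 lower (limma), with a median of -0.07, and with quantile normalization the split was 12 and 22. The 20.5% called lower was near the 17.2% of all genes, and the 6.3% called higher was under the 18.0% of all genes. These counts too changed when single libraries were left out. They were 25 and 47 without MCTP replicate 2, 2 and 9 without MCTP replicate 1, 5 and 13 without MCTP replicate 3, 2 and 9 without control replicate 1, 4 and 8 without control replicate 2 and 5 and 14 without control replicate 3. Senp3 rose by 0.35 (adjusted p = 0.00283 from limma), Wdr46 by 0.34, Rrp36 by 0.33 and Ccdc86 by 0.32. Wdr46 and Rrp36 lost the call without control replicate 1 (0.30 and 0.31) or MCTP replicate 1 (0.34 and 0.31), and Ccdc86 without control replicate 1 (0.29), control replicate 2 (0.33) or MCTP replicate 1 (0.32). The largest falls were -0.53 for Esf1, -0.47 for Krr1, -0.45 for Rpf2 and -0.44 for the exosome helicase gene Skiv2l2. Without control replicate 1 (-0.46, -0.40, -0.41 and -0.39), control replicate 2 (-0.54, -0.49, -0.41 and -0.42) or MCTP replicate 1 (-0.49, -0.41, -0.40 and -0.39) none of these 4 was called, and without MCTP replicate 3 Esf1 (-0.40), Krr1 (-0.39) and Skiv2l2 (-0.36) were not. After the GC correction the 4 falls were smaller (-0.33, -0.32, -0.33 and -0.33) and called, with an adjusted p from limma between 0.00278 and 0.00656.

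Genes of the ribosome itself were set beside the members. Of 78 cytosolic ribosomal protein genes, 21 were called higher and 0 lower in shNsd2 cells (limma, with 24 and 2 at an unadjusted p under 0.05), and the median log2 fold change was 0.062. The share called higher, 26.9%, was near the 23.1% of all genes. The share called lower, 0.0%, was under the 24.8% of all genes. The largest rises were 0.34 for Rplp0 and 0.29 for Rpl14. The number called higher was 7 without shNsd2 replicate 1 and 9 without shNsd2 replicate 2. In MCTP cells 3 were called higher and 1 lower, with a median of 0.076, and the largest rises were 0.43 for Rplp1 and 0.27 for Rps12. These shares, 3.85% and 1.28%, were under those of all genes (18.0% and 17.2%). Without MCTP replicate 2 the counts were 37 higher and 3 lower, and without MCTP replicate 3 they were 1 and 1. Without MCTP replicate 1 or control replicate 1, 2 or 3 they were 0 and 0 (limma). Rplp1 lost the call without control replicate 1 (0.40), 2 (0.46) or 3 (0.44) or MCTP replicate 1 (0.43), and Rps12 without any library other than MCTP replicate 2 (0.21 to 0.29).

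Of 77 mitochondrial ribosomal protein genes, 41 were called higher and 3 lower in shNsd2 cells (limma), with a median log2 fold change of 0.126, and 11 higher and 4 lower in MCTP cells, with a median of 0.105. The shares in shNsd2 cells were 53.2% and 3.9%, beside 23.1% and 24.8% of all genes. They were near the 53.5% and 3.94% of other ribosome biogenesis genes. In MCTP cells the shares, 14.3% and 5.19%, were under those of all genes (18.0% and 17.2%). Mrpl20 rose in both, by 0.50 in shNsd2 and 0.53 in MCTP cells, Mrpl37 rose by 0.39 in shNsd2 cells and Mrpl50 fell by 0.34 in MCTP cells, a fall not called without control replicate 1 (-0.30) or MCTP replicate 1 (-0.31). After the GC correction the change of Mrpl50 in MCTP cells was -0.19 and called (adjusted p = 0.00373 from limma). Centred on medians, the split in MCTP cells was 14 and 2. Of 10 RNA polymerase III subunits, 4 were called higher and 1 lower in shNsd2 cells, with a median of 0.056, and 0 higher and 2 lower in MCTP cells (limma, with 1 and 4 at an unadjusted p under 0.05), where the 20.0% called lower was near the 17.2% of all genes. The named changes were -0.19 for Polr3gl and 0.18 for Polr3d in shNsd2 cells and -0.43 for Polr3g and -0.18 for Polr3b in MCTP cells. Polr3g was not called without MCTP replicate 1 (-0.39), and Polr3b not without any library other than MCTP replicate 2 (-0.20 to -0.16), with quantile normalization (-0.15) or centred on medians (-0.15).

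Noncoding host genes of snoRNAs, which carry the guide RNAs of the snoRNPs in their introns, were also higher in shNsd2 cells. Of 16 listed, 7 were in the table, and all 7 were called higher and 0 lower in shNsd2 cells (limma, with 7 and 0 at an unadjusted p under 0.05), with a median log2 fold change of 0.383. Among all genes tested 23.1% were called higher and 24.8% lower. Gas5 rose by 0.53 and Snhg7 by 0.49. The number called was 5 without control replicate 2, control replicate 3, shNsd2 replicate 2 or shNsd2 replicate 3, where Snhg1 (0.30 to 0.38) and Snhg5 (0.15 to 0.25) lost the call, as they did with all 9 libraries in 1 fit (adjusted p of 0.141 and 0.164 from limma). GC content was known for 3 of the 7, Gas5, Snhg3 and Snhg12, and all 3 were also called higher after the removal of the GC trend, by 0.59, 0.38 and 0.34. In MCTP cells 0 were called higher and 0 lower (limma, with 0 and 1 at an unadjusted p under 0.05), with a median of -0.156, while without MCTP replicate 2 there were 4 called lower.

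Myc was examined as a known regulator of the pathway. It had log2 values of 11.94, 12.12 and 12.17 in control, 11.83, 11.75 and 11.77 in MCTP and 12.22, 12.28 and 12.30 in shNsd2 cells. The shNsd2 libraries were all above and the MCTP libraries all below control, with control replicate 1 near the MCTP libraries. The log2 fold change was 0.19 in shNsd2 cells (SE 0.0584, adjusted p = 0.0264 by limma) and -0.30 in MCTP cells (SE 0.0688, adjusted p = 0.0149 by limma). The rise was not called without shNsd2 replicate 2 (0.18, adjusted p = 0.0771 from limma) or shNsd2 replicate 3 (0.17, adjusted p = 0.0698 from limma), and the fall not without control replicate 2 (-0.27, adjusted p = 0.0663 from limma) or control replicate 3 (-0.25, adjusted p = 0.0606 from limma). Whether the level of Myc bears on that of the members was not tested.

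Mxd4, which encodes a repressor that competes with Myc for their shared partner Max, had log2 values of 8.98, 8.95 and 8.94 in control, 10.38, 10.18 and 10.49 in MCTP and 9.17, 9.20 and 9.16 in shNsd2 cells. It was far higher in the MCTP libraries and slightly higher in the shNsd2 libraries, with log2 fold changes of 1.39 (adjusted p = 5.70e-05 from limma) and 0.22 (adjusted p = 0.00177 from limma). Of the other genes of the Myc network, Mxi1 fell by 0.36 in shNsd2 and by 0.25 in MCTP cells. Over the network, 3 of 10 tested were called higher and 2 lower in shNsd2 cells (limma), with 5 and 2 centred on medians, shares of 30.0% and 20.0% that were near those of all genes (23.1% and 24.8%). In MCTP cells 2 of 9 were called higher and 2 lower, 22.2% in each direction, near the shares of all genes (18.0% and 17.2%). Of the 2 called higher, Max (0.16) lost the call without any library other than MCTP replicate 2 (0.14 to 0.16, adjusted p from limma between 0.0623 and 0.14). The count in shNsd2 cells includes Mycl1, which was under 3.78 in every control and MCTP library (control 3.60, 3.59 and 3.59) and was tested only because its shNsd2 values (3.94, 3.91 and 3.96) were above that level, so that its call shows no more than this.

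Mdm2, a p53 target whose product is bound by free ribosomal proteins when ribosome assembly is disturbed, had log2 values of 11.50, 11.38 and 11.43 in control, 12.21, 12.55 and 12.16 in MCTP and 11.59, 11.61 and 11.72 in shNsd2 cells. The MCTP libraries were far above and the shNsd2 libraries just above the control libraries, with log2 fold changes of 0.87 (adjusted p = 9.29e-04 from limma) and 0.20 (adjusted p = 0.00713 from limma). Of 15 p53 targets, 10 were called higher and 1 lower in shNsd2 cells (limma), with a median log2 fold change of 0.189, and 12 higher and 1 lower in MCTP cells, with a median of 0.592. Among all genes tested 23.1% were called higher and 24.8% lower in shNsd2 cells, and 18.0% and 17.2% in MCTP cells. Sesn2 rose by 0.53 and Trp53inp1 by 0.41 in shNsd2 cells, and Btg2 by 1.20 and Cdkn1a by 0.94 in MCTP cells. Trp53inp1 was not called in shNsd2 cells without control replicate 2 (0.35) or control replicate 3 (0.36). With all 9 libraries in 1 fit neither the rise of Mdm2 nor that of Trp53inp1 in shNsd2 cells was called (adjusted p of 0.12 and 0.179 from limma). A link between these genes and the members was not tested.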

How the data were processed

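The deposited table gives values on a log2 scale that, by their near-equal medians, the authors had already scaled between libraries, and these were used as given. The submitters' processing notes name bcl2fastq 1.8.4, TopHat, Cufflinks, DESeq, DESeq2 and the mm9 build. The table holds 3 further value columns that match no described sample and were not used, and read depth is unknown.

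Each comparison was fitted in limma 3.58.1 (R 4.3.3) on its 6 libraries alone, over genes with at least 3 of the 6 libraries above 3.78 (the median of the lowest 10% of values), with eBayes moderation along the trend of the variance with the mean. P-values were adjusted by Benjamini and Hochberg's method over the genes tested, and 0.05 was the threshold. Tables and plots were made in Python 3.11.15 with matplotlib 3.10.9. GC content and lengths came from GENCODE M21 on GRCm38, in which 12513 of 12842 genes (97.4%) were matched.

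The alternatives were no filter, all 9 libraries in 1 fit, the replicate number as a block, centring on medians, quantile normalization, no trend in eBayes, a GC correction (lowess, span 0.3) and leaving out each library. Shares of all genes called refer to the main fits only, not to the alternatives. Chosen after seeing the data were the longest transcript as the length, and the GC correction and leaving out of libraries for the counts of other ribosome biogenesis genes, cytosolic ribosomal proteins and snoRNA hosts.

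Values in every library are given for the 6 called members with the largest absolute log2 fold change in each comparison with control, up to 4 members with opposite calls, the 3 with the highest level per length, Nsd2, Myc, Mxd4 and Mdm2. From the other ribosome biogenesis genes the 4 largest rises and falls called are named in each comparison with control, and from each further list the 2 largest changes called. The members and lists were chosen with earlier results of these data known. Nothing states that the replicates are separate cultures, so p-values measure only the spread between these samples.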

Additional observations from a re-analysis of the deposited data

How the results depend on the processing

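In shNsd2 cells the number of members called higher ranged from 34 (all 9 libraries in 1 fit) to 42 (GC correction), and 37 to 39 with a library left out, with 0 lower in each (limma). In MCTP cells, leaving out 1 library gave 0 to 12 higher and 4 to 15 lower, and a median from -0.033 to 0.017, which was 0.039 centred on medians and -0.032 with GC correction. For shNsd2 against MCTP, leaving out 1 library gave 0 to 1 lower and a median from 0.26 to 0.331, which was 0.268 with quantile normalization and 0.327 with GC correction. With the replicate number as a block, 37 members were called higher in shNsd2 cells, 4 higher and 10 lower in MCTP cells and 30 higher for shNsd2 against MCTP. The mean correlation of deviations was lower between libraries of the same number (-0.251, -0.185 and -0.361 in the 3 comparisons) than of other numbers (0.156, 0.143 and 0.228). Deviations from a group mean cancel within the group, which ties these means to opposite signs. Between libraries of the same number the correlation ran from -0.6 to 0.612 for MCTP against control. The check gave no sign of pairing but cannot exclude it. Among other ribosome biogenesis genes, leaving out 1 library gave 2 to 6 lower in shNsd2 cells and 2 to 25 higher and 8 to 47 lower in MCTP cells, quantile normalization 3 lower in shNsd2 cells, and 12 higher in MCTP cells, and GC correction 15 higher in MCTP cells. For cytosolic ribosomal proteins it gave 7 to 27 higher and 0 to 3 lower in shNsd2 cells and 0 to 37 higher and 0 to 3 lower in MCTP cells, with quantile normalization 1 lower in shNsd2 and 9 higher and 3 lower in MCTP cells, and with GC correction 2 lower in shNsd2 and 9 higher and 2 lower in MCTP cells. For snoRNA hosts it gave 5 to 7 higher in shNsd2 cells and 0 to 4 lower in MCTP cells, and GC correction 3 higher in shNsd2 cells, which are all 3 with a known GC content. Centring on medians gave 2 mitochondrial ribosomal proteins lower and 1 RNA polymerase III subunit lower in MCTP cells, the latter also with quantile normalization, and 5 genes of the Myc network higher in shNsd2 cells. The sign changed for Bop1 in shNsd2 against MCTP (-0.06 without MCTP replicate 2, the highest with a library left out being 0.11 without MCTP replicate 3), for Ddx10 in shNsd2 cells (-0.01 without control replicate 2, -0.01 without control replicate 3 and -0.04 without shNsd2 replicate 3, the highest with a library left out being 0.05 without control replicate 1) and for Mybbp1a in MCTP cells (-0.07 with GC correction, -0.03 without control replicate 1, -0.01 without MCTP replicate 1 and -0.03 without MCTP replicate 3, the highest with a library left out being 0.08 without MCTP replicate 2). Over the named genes, 1196 values under the alternatives had the same sign and call, 176 the same sign with a call lost, 7 with a call gained and 8 the other sign. The cause was not tested. Because depth is unknown, a change that was not called may be too small to detect here.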
